A study of Mus musculus with 12 samples.

Results

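The miRNAs described here come from the Rtl1 antisense region of the imprinted Dlk1-Dio3 domain of mouse chromosome 12. They were chosen by name, as every array entry of mmu-miR-127, mmu-miR-136, mmu-miR-337, mmu-miR-431, mmu-miR-433, mmu-miR-434, mmu-miR-540 and mmu-miR-665, whatever its arm or star suffix. This gave 15 of the 611 mouse miRNAs on the array. Detection on the full pair of arrays in 1 or more groups let 8 of them be tested: mmu-miR-127, mmu-miR-136, mmu-miR-337-3p, mmu-miR-337-5p, mmu-miR-431, mmu-miR-433, mmu-miR-434-3p and mmu-miR-434-5p, written below without the species prefix. Of the other 7, miR-127*, miR-431*, miR-540-3p, miR-540-5p and miR-665 were detected on 0 of 12 arrays. miR-136* was detected on 1 array, knockout at 24 h replicate 1, and miR-433* on 1 array, untreated knockout replicate 2.

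The cells were mouse embryonic fibroblasts of C57BL/6 background, either wild type (ATF6bWT) or lacking ATF6b (ATF6bKO). ATF6b is a membrane-bound transcription factor of the endoplasmic reticulum that is cleaved and released under stress. Tunicamycin blocks N-linked glycosylation, so that unfolded proteins build up in that compartment. Each genotype was left untreated or received 2 ug/mL tunicamycin for 12 h or 24 h, which gives 6 groups of 2 arrays, and the design text states that the 2 came from independent experiments. All groups were grown in the same medium with fetal bovine serum, and the labels do not say whether the cells of a genotype came from 1 embryo, 1 line or a pool, so a difference between cell lines and the loss of ATF6b cannot be told apart. The array does not measure Atf6b mRNA and gives no check of the genotype labels. The design text asks which miRNAs respond to 12 h of tunicamycin in a way that depends on ATF6b.

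Dlk1-Dio3 is imprinted: its protein-coding genes, among them Dlk1 and Rtl1, are expressed from the paternal chromosome, and its long non-coding RNAs and miRNAs from the maternal chromosome. One of the maternal RNAs runs antisense to Rtl1, a retrotransposon-derived gene needed for normal placental vessels. miRNAs cut from this antisense RNA match Rtl1 mRNA perfectly and can guide its cleavage. The domain's miRNAs are known to be active in embryonic tissues and in cultured fibroblasts.

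All 8 hairpins lie within the annotated span of Rtl1 on the plus strand of chromosome 12, in the order Mir337, Mir540, Mir665, Mir431, Mir433, Mir127, Mir434 and Mir136, over 9.6 kb (RefSeq, GRCm38.p6). Mir337 is at chr12:109585789-109585885, Mir431 at chr12:109590447-109590537, Mir433 at chr12:109591715-109591838, Mir127 at chr12:109592846-109592915, Mir434 at chr12:109594506-109594599 and Mir136 at chr12:109595327-109595388. Mir433 also lies within the span of the non-coding gene 6430411K18Rik. Of the 15 array names 6 could be matched to an arm in RefSeq. The names miR-431, miR-433, miR-127 and miR-136 give no arm, so both mature arms of those hairpins are printed. The sequences below are the mature arms of the 8 tested miRNAs, from RefSeq, shown because the seed (bases 2 to 8, in capitals) sets which mRNAs each can pair with.
mmu-miR-337-5p: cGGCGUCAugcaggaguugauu
mmu-miR-337-3p: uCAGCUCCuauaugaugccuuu
mmu-miR-431-5p: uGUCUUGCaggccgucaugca
mmu-miR-431-3p: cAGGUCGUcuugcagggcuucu
mmu-miR-433-5p: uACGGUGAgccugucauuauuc
mmu-miR-433-3p: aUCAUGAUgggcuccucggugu
mmu-miR-127-5p: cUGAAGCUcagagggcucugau
mmu-miR-127-3p: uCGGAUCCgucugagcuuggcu
mmu-miR-434-5p: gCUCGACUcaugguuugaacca
mmu-miR-434-3p: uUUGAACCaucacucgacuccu
mmu-miR-136-5p: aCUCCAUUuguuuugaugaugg
mmu-miR-136-3p: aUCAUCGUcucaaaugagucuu

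These 12 arms have 12 distinct seeds, and none of them is the seed of another of the 1679 mature mouse miRNAs in the RefSeq table. The genes are therefore neighbours rather than a seed family. The longest run of bases shared by 2 different hairpins was 9 (CGUCAUGCA, in miR-337-5p and miR-431-5p). Cross-hybridisation between probes was not tested.

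Levels are given as log2 scaled signal: the background-subtracted intensity of a miRNA's probes, summed, divided by the 75th percentile of the miRNAs detected on all 12 arrays, and set on a log2 scale, so that a value of 0 equals that percentile. Values were floored at -5.71, near the lowest detected signal. A miRNA is described as called where limma's adjusted p, Benjamini-Hochberg over all 176 tested mouse miRNAs, was at most 0.05. The members were dim, each below the 75th percentile on every array. miR-127, miR-136, miR-337-5p, miR-431 and miR-434-3p were detected on all 12 arrays, miR-337-3p on 11, miR-434-5p on 10 and miR-433 on 9. The share of single spots above background was 80.8% for miR-136 and miR-434-3p, 79.2% for miR-127, 76.7% for miR-337-5p, 50.4% for miR-431, 44.2% for miR-337-3p, 38.3% for miR-434-5p and 33.3% for miR-433. No spot was saturated.

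Between 114 and 189 mouse miRNAs were detected per array. The 75th percentile was 257, 246 and 208 intensity units on replicate 2 of wild type at 24 h, knockout at 12 h and knockout at 24 h, against 412.1 to 623 on the other arrays. One slide held the untreated arrays and a second slide the treated ones, and treatment cannot be told apart from slide. Within a slide the genotypes also differ in row. Fibroblast markers were abundant on every array, with 6 to 9 of the 9 on the array detected. Blood, endothelial and liver markers were detected on none, and at most 2 neural, 1 muscle and 1 pluripotent marker were detected per array. Of 6 epithelial markers (the miR-200 family and miR-205) 0 were detected on the untreated and the wild-type arrays, where their summed scaled signal was at most 0.0188 times the 75th percentile. All 4 arrays of tunicamycin-treated knockout cells had 3 or 4 of them detected, with a summed scaled signal of 2.54 to 3.72 times that percentile, unlike untreated knockout cells under the same genotype label. Every result on treated knockout cells rests on these 4 arrays. The part of those markers in the results was not tested.

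**Figure D1:**
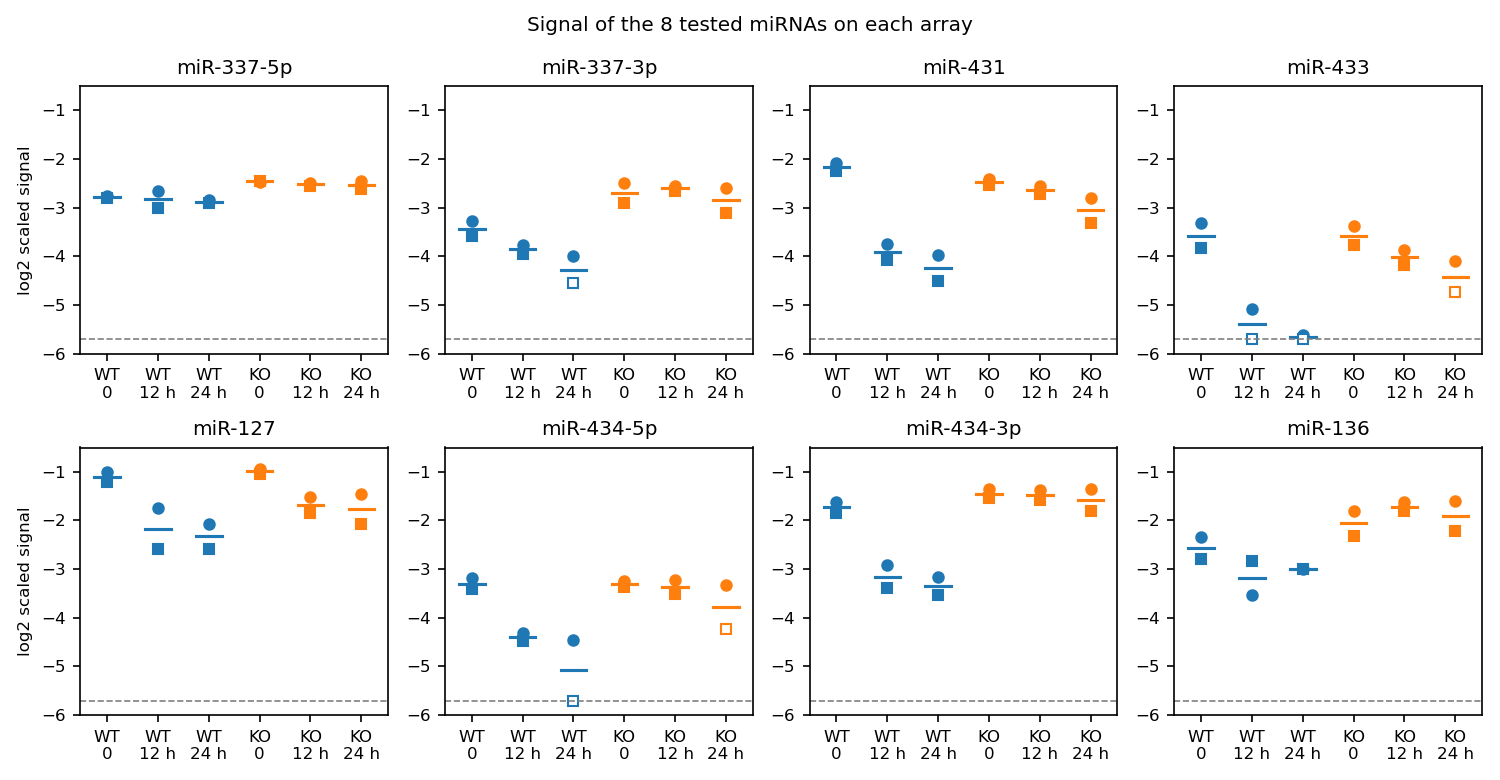
Log2 scaled signal (y axis) of the 8 tested miRNAs on each array, by group (x axis; 0 is untreated), with a bar at the group mean, circles for replicate 1 and squares for replicate 2. Filled points were detected and open points were not, and the dashed line is the floor at -5.71. Untreated wild-type cells lay above both treated wild-type groups for miR-431, miR-433 and miR-434-3p, while treated and untreated knockout cells stayed closer together.

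In wild-type cells 4 of the 8 tested miRNAs were called lower after 12 h of tunicamycin, namely miR-431, miR-433, miR-434-3p and miR-127. None was called higher. Among all 176 tested miRNAs 23.9% were called lower. With normexp background correction over all spots, however, miR-431, miR-433 and miR-434-3p turned higher, and with the deposited total signal miR-127 did. Normexp fitted a background of -488 on wild type 12 h replicate 1, and 3.66 without its 9 spots of local background over 1000. Without those spots no called 12 h difference of a member reversed with normexp, though most were no longer called. The 4 called miRNAs came from hairpins in the middle of the region, but the other arm of Mir434 was not called. From its ends, miR-136 and miR-337-3p were also lower at 12 h without overlap of arrays (-0.62 and -0.42), though not called. At 24 h miR-337-3p was called lower (-0.85). A pattern by position was not tested. The signal of a bulk culture cannot tell fewer cells carrying a miRNA from less of it per cell.

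miR-431, which is known from muscle regeneration and is antisense to Rtl1, stood at -2.08 and -2.25 on the untreated wild-type arrays and at -3.74 and -4.08 after 12 h. The treated arrays lay below the untreated ones without overlap, a difference of -1.74 ± 0.24 (SE, limma adjusted p = 0.000947, n = 2 per group), or 3.35-fold. miR-433, whose hairpin precedes that of miR-127, was at -3.33 and -3.84 untreated and at -5.08 and -5.71 after 12 h, where replicate 2 was at the floor and only 1 of 2 arrays detected it. The log2 difference of -1.81 ± 0.31 (limma adjusted p = 0.00276) is therefore partly set by the floor. miR-434-3p was at -1.62 and -1.84 untreated and at -2.92 and -3.39 after 12 h. It fell by 1.43 ± 0.23 (limma adjusted p = 0.0024), and its sister arm miR-434-5p went from -3.18 and -3.41 to -4.32 and -4.48 without being called (-1.1 ± 0.42, adjusted p = 0.0779).

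miR-127, the best known guide against Rtl1 mRNA, stood at -1.0 and -1.20 untreated and at -1.74 and -2.59 after 12 h. Its difference was -1.07 ± 0.33 (limma adjusted p = 0.037), and the replicates differed more among themselves after treatment than before. miR-136, the last hairpin, was at -2.34 and -2.80 untreated and at -3.53 and -2.84 treated (-0.62 ± 0.31, adjusted p = 0.153). The arms of Mir337 changed least: miR-337-3p differed by -0.42 ± 0.25 (adjusted p = 0.219) and miR-337-5p by -0.05 ± 0.13 (adjusted p = 0.828, 95% interval -0.36 to 0.27).

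Among all 176 tested miRNAs 23.9% were called lower at 12 h in wild type, against 4 of 8 here, and the median difference was -1.08 for the 8 and -0.05 for all. No member was called with arrays scaled over all miRNAs (3 at an unadjusted p under 0.05 by limma). miR-127 was not called without any 1 of 7 arrays, namely both untreated wild-type arrays, wild type 12 h replicate 2, both untreated knockout arrays and both 12 h knockout arrays, with adjusted p of 0.0537 to 0.201, and miR-434-5p was called without either 24 h wild-type array (adjusted p = 0.0234). Summed scaled signal was 41.6 to 48.6 on the untreated and 36.5 to 40 on the 12 h wild-type arrays for fibroblast markers, and 0.194 to 0.248 and 0.0958 to 0.123 for neural markers. It was higher after treatment for muscle markers (0.0259 to 0.032 untreated, 0.053 to 0.0759 at 12 h) and pluripotent markers (0.0401 to 0.0888, and 0.0972 to 0.121). The part of these markers in the falls was not tested.

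After 24 h the same comparison in wild type called 6 of 8 lower and 0 higher, adding miR-337-3p and miR-434-5p, although with normexp correction miR-337-3p turned higher and with the deposited total signal miR-127 did. Both times are set against the same untreated arrays. Of all tested miRNAs 29.5% were called lower at 24 h, and the median was -1.42 for the 8 and -0.03 for all. miR-431 was at -3.97 and -4.51, a log2 difference of -2.08 ± 0.24 from untreated cells, or 4.22-fold lower (limma adjusted p = 0.000504). miR-433 was at -5.63 and at the floor of -5.71, with 1 of 2 arrays detected, a fitted difference of -2.08 ± 0.31 (adjusted p = 0.00118). Its untreated arrays at -3.33 and -3.84 lay well above. miR-434-3p reached -3.16 and -3.53, a fall of 1.62 ± 0.23 (adjusted p = 0.00115).

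miR-434-5p was at -4.45 on 1 array and at the floor of -5.71 on the other, which was not detected (-1.78 ± 0.42, limma adjusted p = 0.0109). miR-127 was at -2.07 and -2.58 (-1.23 ± 0.33, adjusted p = 0.020). Both arrays lay below the untreated range for these 2 miRNAs. miR-337-3p was at -4.0 and -4.55 against -3.29 and -3.58 untreated (-0.85 ± 0.25, adjusted p = 0.0301), where the lower array was not detected and had 0 of 20 spots above background. The other arm of its hairpin, miR-337-5p, stood at -2.85 and -2.90 against -2.77 and -2.81 (-0.09 ± 0.13, adjusted p = 0.609). miR-136 was at -3.0 on both arrays (-0.43 ± 0.31, adjusted p = 0.285). Leaving out replicate 1 of the untreated wild-type cells or replicate 2 of the wild-type cells at 24 h left 3 called in either case, losing miR-127, miR-337-3p and miR-434-5p. Without wild type untreated replicate 2, miR-127 (adjusted p = 0.0607) and miR-337-3p (adjusted p = 0.059) were lost. At 24 h fibroblast markers summed to 38.3 to 42, which overlaps the untreated range, and neural markers to 0.0536 to 0.105, below the untreated 0.194 to 0.248. Muscle markers summed to 0.0449 to 0.086, above the untreated 0.0259 to 0.032, and the part of these lists was not tested.

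**Figure D2:**
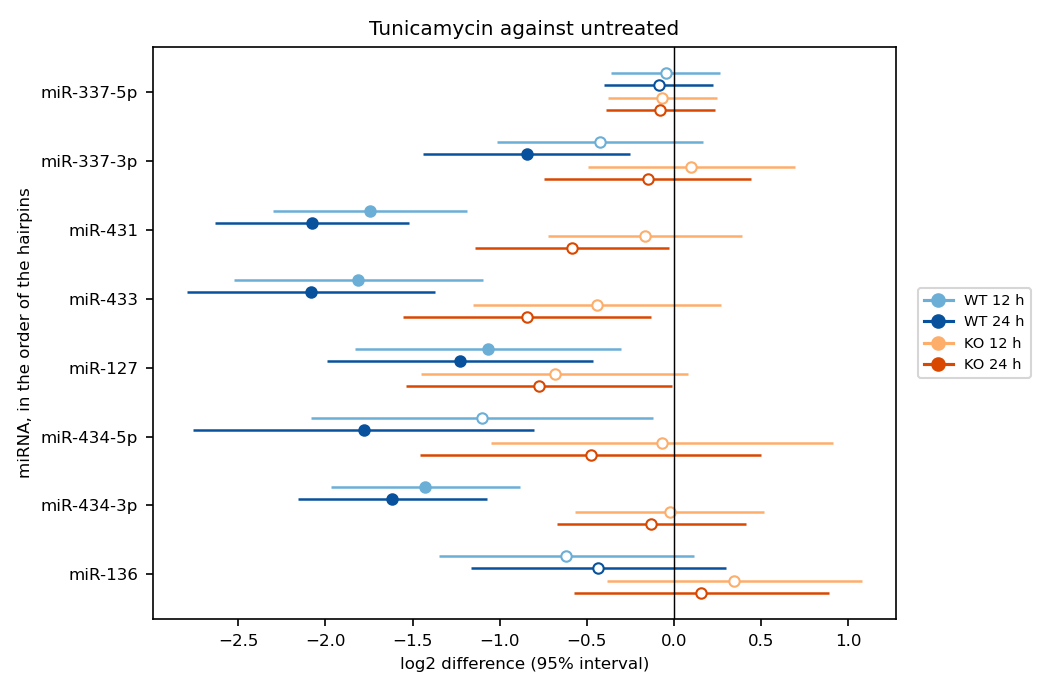
Log2 difference between tunicamycin-treated and untreated cells (x axis) for each tested miRNA in hairpin order (y axis), with 95% intervals from limma, blue for wild type and orange for knockout. Filled points passed an adjusted p of 0.05: 4 wild-type points at 12 h and 6 at 24 h, all left of 0, and 0 knockout points. With normexp correction the 12 h wild-type points of miR-431, miR-433 and miR-434-3p and the 24 h point of miR-337-3p turned higher, as both wild-type points of miR-127 did with the deposited total signal. Without 9 spots of high local background on wild type 12 h replicate 1, normexp turned no filled 12 h point, though most were no longer called.

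In knockout cells 0 of the 8 tested miRNAs were called after either 12 h or 24 h of tunicamycin by limma (0 and 3 at an unadjusted p under 0.05). Over all 176 miRNAs 25.6% were called in either direction at 12 h and 30.7% at 24 h, and 3.98% and 5.11% were called lower. The median difference of the 8 was -0.07 at 12 h and -0.31 at 24 h, against 0.25 and 0.15 over all tested. These intervals are wide with 2 arrays a group and do not show that the miRNAs were unchanged.

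miR-434-3p was at -1.35 and -1.55 in untreated knockout cells, at -1.37 and -1.58 after 12 h and at -1.35 and -1.81 after 24 h. The treated and untreated arrays overlapped, with differences of -0.02 (95% interval -0.57 to 0.52) and -0.13 (-0.67 to 0.41). miR-431 was at -2.41 and -2.54 untreated, -2.56 and -2.72 at 12 h and -2.80 and -3.32 at 24 h. Its treated arrays lay below the untreated ones at both times, by -0.17 ± 0.24 (limma adjusted p = 0.653) and -0.59 ± 0.24 (adjusted p = 0.104). miR-433 was at -3.39 and -3.77 untreated, -3.88 and -4.17 at 12 h and -4.10 and -4.74 at 24 h, where replicate 2 was not detected. Its difference at 24 h was -0.84 ± 0.31 (adjusted p = 0.0741).

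miR-127 showed the largest 12 h difference of the 8 in knockout cells: it was at -0.93 and -1.05 untreated, -1.51 and -1.84 at 12 h and -1.46 and -2.08 at 24 h. Those differences of -0.68 ± 0.33 (limma adjusted p = 0.198) and -0.77 ± 0.33 (adjusted p = 0.116) had no overlap between treated and untreated arrays. miR-136 alone had positive differences at both times, 0.35 ± 0.31 (adjusted p = 0.463) and 0.16 ± 0.31 (adjusted p = 0.725), and its arrays overlapped. miR-337-3p differed by 0.10 and -0.15, miR-337-5p by -0.07 and -0.08 and miR-434-5p by -0.07 and -0.48, with adjusted p of 0.448 to 0.947.

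Without knockout 24 h replicate 1, the 24 h difference was -0.85 for miR-431 and -1.16 for miR-433, and miR-433 was not detected on the knockout 24 h array left. Epithelial markers summed to at most 0.0188 in untreated knockout cells and to 2.54 to 3.72 in treated ones, and fibroblast markers to 41.3 to 44.8 untreated, 49.4 to 53.7 at 12 h and 46.4 to 51.9 at 24 h. Their part was not tested.

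The response itself differed between genotypes for miR-431 and miR-434-3p. At 12 h the response in knockout cells minus that in wild type was 1.58 ± 0.34 for miR-431 (limma adjusted p = 0.0148) and 1.40 ± 0.33 for miR-434-3p (adjusted p = 0.0208). Both turned slightly negative with normexp correction over all spots. Without the 9 spots of high local background on wild type 12 h replicate 1, normexp turned neither negative, and neither was called. At 24 h the response difference was 1.49 ± 0.34 for miR-431 (adjusted p = 0.0204) and 1.49 ± 0.33 for miR-434-3p (adjusted p = 0.0203). Split by replicate number, the 12 h difference was 1.51 and 1.64 for miR-431 and 1.28 and 1.52 for miR-434-3p. The 24 h difference was 1.5 and 1.48 for miR-431 and 1.55 and 1.42 for miR-434-3p. These values average to the differences above, and the numbers do not pair treated with untreated arrays, so their like sign is no separate support.

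Across all 176 miRNAs 22.2% had a higher response in knockout cells at 12 h and 19.9% at 24 h, against 2 of 8 here at each time. The median response difference was 1.00 for the 8 and 0.37 for all at 12 h, and 0.97 and 0.44 at 24 h. miR-433 did not pass at 12 h (1.37 ± 0.43, limma adjusted p = 0.0572) or at 24 h (1.24 ± 0.43, adjusted p = 0.082), and the floor in treated wild-type cells limits its size. miR-434-5p stood at 1.03 and 1.30 (adjusted p = 0.251 and 0.165), and miR-136 at 0.97 and 0.59 (adjusted p = 0.154 and 0.375). miR-127 had response differences of 0.38 and 0.45 (adjusted p = 0.601 and 0.535). miR-337-5p had the smallest, -0.02 and 0.01, with 95% intervals of -0.46 to 0.42 and -0.43 to 0.45.

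With the scan session as a block, miR-433 was called at 12 h (adjusted p = 0.00547), and miR-337-3p (0.69, adjusted p = 0.0421), miR-433 (adjusted p = 0.00834) and miR-434-5p (adjusted p = 0.0369) at 24 h, which makes 3 and 5 of 8. For response differences this block was added after seeing the data. The shares of all tested miRNAs given above come from the fit without this block, so these counts cannot be set against them. The calls also depended on single arrays: 0 members were called at 12 h without wild type untreated replicate 1, knockout 12 h replicate 1 or wild type 12 h replicate 2 (limma, adjusted p of 0.0553 to 0.0820 for the 2 miRNAs), and only miR-431 without knockout untreated replicate 2. At 24 h 0 were called without wild type untreated replicate 1, knockout 24 h replicate 1, wild type 24 h replicate 2 or knockout untreated replicate 2, and only miR-434-3p without knockout untreated replicate 1. For miR-433 the 12 h response difference was 1.68 without wild type 12 h replicate 1, where the array left was undetected at the floor. Without either knockout 24 h array it stayed at 1.37. The 24 h response difference of miR-433 was 1.56 without knockout 24 h replicate 2. That of miR-434-5p was 1.93 without wild type 24 h replicate 1, where the array left was again undetected at the floor. The epithelial markers, at 2.54 to 3.72 on the treated knockout arrays and at most 0.0188 elsewhere, moved with the same arrays, and their part was not tested.

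Without treatment 0 of 8 differed between knockout and wild type by limma (2 at an unadjusted p under 0.05), where 11.4% of all tested miRNAs were called in either direction. The median difference, knockout minus wild type, was 0.19 for the 8 and -0.03 for all. The levels of miR-433 (-3.39 and -3.77 in knockout, -3.33 and -3.84 in wild type) and of miR-434-5p (-3.24 and -3.36, against -3.18 and -3.41) overlapped. miR-337-3p was at -2.49 and -2.91 in knockout against -3.29 and -3.58 in wild type, without overlap, a difference of 0.73 ± 0.25 (limma adjusted p = 0.118) that was called with the scan session as a block (adjusted p = 0.0174). miR-337-5p differed by 0.33 ± 0.13 (adjusted p = 0.196) and miR-136 by 0.51 ± 0.31 (adjusted p = 0.435). miR-431 stood slightly lower in knockout cells, by -0.31 ± 0.24 (adjusted p = 0.548).

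At 12 h of tunicamycin 5 of 8 were higher in knockout than in wild-type cells, namely miR-434-3p, miR-136, miR-433, miR-431 and miR-337-3p. With normexp correction over all spots, however, the last 4 of these turned lower, and with the deposited total signal miR-136 did. Without the 9 spots of high local background on wild type 12 h replicate 1, normexp turned none of the 5 lower, though most were no longer called. Over all 176 miRNAs 29.5% were called higher. The median difference was 1.26 for the 8 and 0.23 for all.

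The largest difference was that of miR-434-3p, at -1.37 and -1.58 in knockout against -2.92 and -3.39 in wild type (1.68 ± 0.23, limma adjusted p = 0.00125), or 3.21-fold. miR-136 was at -1.63 and -1.81 in knockout against -3.53 and -2.84 in wild type (1.47 ± 0.31, adjusted p = 0.00788). miR-433 was higher by 1.37 ± 0.31 (adjusted p = 0.00971), miR-431 by 1.27 ± 0.24 (adjusted p = 0.0048) and miR-337-3p by 1.25 ± 0.25 (adjusted p = 0.00618). For each of these 5 every knockout array lay above every wild-type array at 12 h. The same held for miR-434-5p and miR-337-5p, which were not called, while miR-127 overlapped between genotypes. Such separation was not counted over all tested miRNAs, so it is no separate support for the calls. On replicate 2 miR-433 had 0 of 20 spots above background in either genotype, with wild type undetected at the floor, and miR-337-3p had 0 of 20 in wild type. miR-434-5p (1.03 ± 0.42, adjusted p = 0.095), miR-127 (0.49 ± 0.33, adjusted p = 0.296) and miR-337-5p (0.31 ± 0.13, adjusted p = 0.111) were not called.

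With the scan session as a block, miR-127 (adjusted p = 0.0274) and miR-434-5p (adjusted p = 0.0163) were called higher at 12 h as well. Without knockout 12 h replicate 1 the number was 3, losing miR-136 (adjusted p = 0.0508) and miR-433 (adjusted p = 0.0599), and without wild type 12 h replicate 2 miR-433 was lost (adjusted p = 0.0603). miR-337-5p was called without wild type 12 h replicate 1 (0.48, adjusted p = 0.0383), and miR-434-5p without either 24 h wild-type array (adjusted p = 0.0316). The knockout arrays of this comparison carried epithelial markers at 2.56 to 3.72 and fibroblast markers at 49.4 to 53.7, and the wild-type arrays carried them at no more than 0.00949 and at 36.5 to 40, and their part was not tested.

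At 24 h 6 of 8 were higher in knockout cells, the same 5 and miR-434-5p, against 27.3% of all tested miRNAs called higher. The median was 1.21 for the 8 and 0.25 for all. miR-434-3p was at -1.35 and -1.81 in knockout against -3.16 and -3.53 in wild type (1.76 ± 0.23, limma adjusted p = 0.00128), or 3.39-fold. miR-337-3p was at -2.60 and -3.11 against -4.0 and -4.55 (1.42 ± 0.25, adjusted p = 0.00447), where both replicate 2 arrays had 0 of 20 spots above background and the wild-type one was not detected. In both miRNAs the lower knockout array was still above the higher wild-type array. miR-434-5p differed by 1.30 ± 0.42 (adjusted p = 0.0462), miR-433 by 1.25 ± 0.31 (adjusted p = 0.0145), miR-431 by 1.18 ± 0.24 (adjusted p = 0.00772) and miR-136 by 1.1 ± 0.31 (adjusted p = 0.0279). On replicate 2 at 24 h miR-434-5p and miR-433 were detected in neither genotype, with 0 of 20 spots above background and wild type at the floor, so in that replicate their differences of 1.47 and 0.97 compare signals not above background. miR-127 (0.56 ± 0.33, adjusted p = 0.230) overlapped between genotypes, and miR-337-5p (0.34 ± 0.13, adjusted p = 0.0943) did not pass.

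With the scan session as a block miR-127 was called at 24 h (adjusted p = 0.0181). Leaving out replicate 1 of knockout or replicate 2 of wild type at 24 h left 3 called, and 4 remained without wild type 24 h replicate 1. Those arrays ended the calls of miR-136 (adjusted p of 0.10 to 0.151) and miR-433 (0.0582 to 0.0850), and miR-434-5p was lost without any 1 array other than wild type 24 h replicate 1 or knockout 24 h replicate 2 (0.0659 to 0.230). Epithelial markers were at 2.54 to 3.13 on the knockout arrays and at most 0.0034 on the wild-type arrays at 24 h, and fibroblast markers at 46.4 to 51.9 and 38.3 to 42. Their part was not tested.

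**Figure D3:**
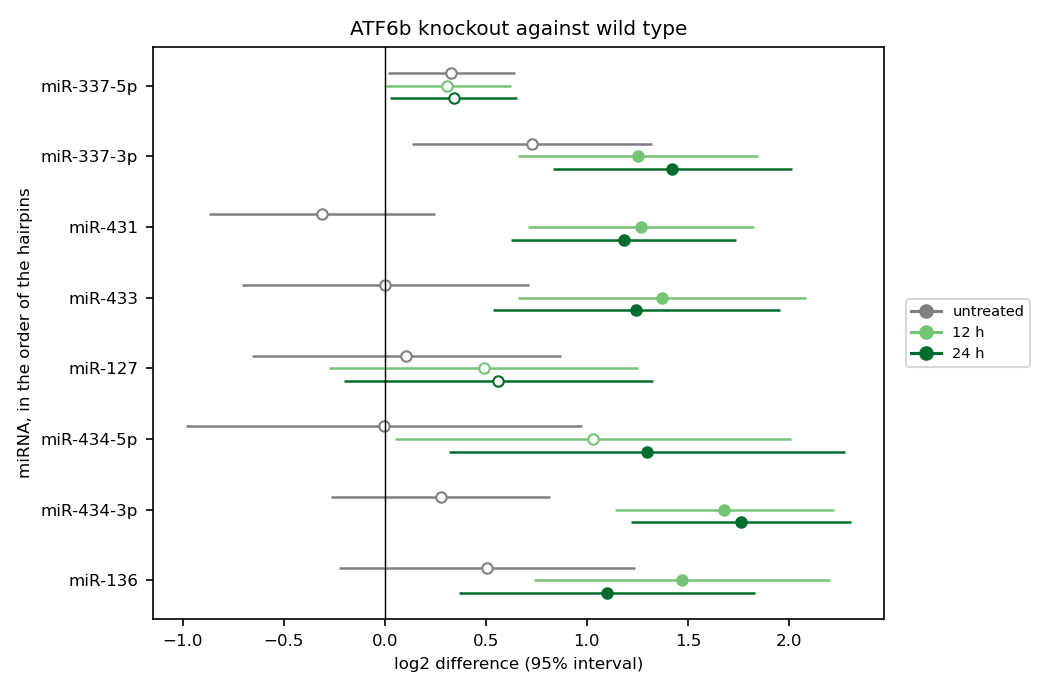
Log2 difference of knockout minus wild type (x axis) for each tested miRNA in hairpin order (y axis), with 95% intervals from limma, in untreated cells (grey) and after 12 h (light green) and 24 h (dark green) of tunicamycin. Filled points passed an adjusted p of 0.05: 0 untreated, 5 at 12 h and 6 at 24 h, all right of 0. With normexp correction over all spots the 12 h points of miR-136, miR-337-3p, miR-431 and miR-433 turned lower, and that of miR-136 also did with the deposited total signal. Without 9 spots of high local background on wild type 12 h replicate 1, normexp turned no filled 12 h point, though most were no longer called.

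Between 12 h and 24 h of tunicamycin no call was made among the 8 in either genotype, 0 and 0 by limma (0 at an unadjusted p under 0.05 in each), where 1.14% and 0.568% of all tested miRNAs were called in either direction. The widest difference was that of miR-434-5p in wild type, -0.68 ± 0.42 (limma adjusted p = 0.81), which rests on 1 array at the floor.

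Both arms of 2 hairpins were measured, which allows a comparison within a precursor. For Mir434 the 3p arm gave the higher signal on every array, by 1.57 and 1.57 on the log2 scale in untreated wild-type cells, 1.40 and 1.08 at 12 h and 1.29 and 2.18 at 24 h, where the last value is set by the floor. In knockout cells it was higher by 1.81 to 1.97 on the 5 arrays that detected both arms, and by 2.43 on 24 h replicate 2, where miR-434-5p was not detected. For Mir337 the 5p arm gave the higher signal on every array: the 3p arm minus the 5p arm was -0.52 and -0.77 in untreated wild-type cells, -1.1 and -0.95 at 12 h and -1.16 and -1.64 at 24 h. In knockout cells this value lay between -0.50 and -0.02 over all 6 arrays. miR-337-3p had 0 of 20 spots above background on replicate 2 of wild type at 12 h, wild type at 24 h and knockout at 24 h, and was not detected on the second of these, so those arm values rest on signal near background. The nearest values of the genotypes, -0.52 and -0.50, were close. Probes differ in efficiency, so only changes of these values between arrays, not their size, can be read as levels.

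The 8 miRNAs were measured by 17 probes. In wild type 14 of the 17 were lower after 12 h and 14 after 24 h, 0 were higher, and the other 3 stayed at the floor. The median probe difference was -0.60 at 12 h and -0.66 at 24 h. In knockout cells 10 probes were lower and 6 higher at 12 h (median -0.09), and 12 lower and 3 higher at 24 h (median -0.17). Knockout against wild type, 14 probes were higher and 0 lower at 12 h, and 13 and 0 at 24 h. Probes of 1 miRNA share its RNA and are not replicates. They are the probes summed into the levels above, so these counts are no separate support. The same counts over all probes of the array were not made. Over all 176 miRNAs the median difference was -0.05 and -0.03 in wild type at 12 h and 24 h. It was 0.23 and 0.25 for knockout against wild type.

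**Figure D4:**
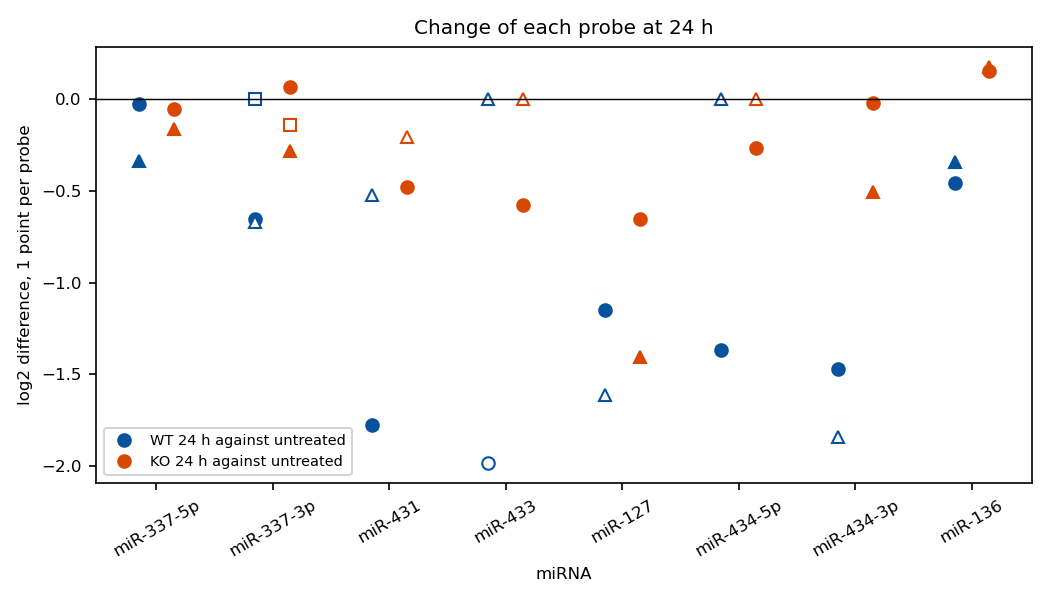
Log2 difference at 24 h of tunicamycin against untreated cells (y axis) for each single probe of the 8 tested miRNAs (x axis, in hairpin order), blue for wild type and orange for knockout. Circles are the brightest probe of a miRNA, triangles the next and the square the third, and open symbols were at the floor on at least 1 array. All 14 wild-type probes that left the floor lie below 0, between -0.03 and -1.98.

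The software's total signal per miRNA, which the authors' deposited log2 table holds, disagreed with the spots of several members. On wild type 12 h replicate 2 the total given for miR-127 was 2121 intensity units, where the software's own totals for its 2 probes summed to 52.5, a ratio of 40.4. On wild type 24 h replicate 2 it was 931 against 28.4, a ratio of 32.7. The ratio was 18.1 and 16.8 on replicate 2 of knockout at 12 h and at 24 h. With these totals, miR-127 turned from a fall of 1.07 at 12 h in wild type to a rise of 1.46. Over all mouse miRNAs 614 of 1893 detected values (32.4%) were more than 1.1 times the sum of their probe totals. The values given here are from the intensities of the spots.

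Of the other Dlk1-Dio3 miRNAs, listed with earlier results of these data known, 58 were on the array and 24 were tested. In wild type 13 of 24 were called lower at 12 h (median -0.64) and 18 at 24 h (median -0.98), against 23.9% and 29.5% of all tested miRNAs. At both times 0 of the 24 were called higher. With normexp correction over all spots, however, 12 of the 13 turned higher at 12 h and 4 of the 18 at 24 h. Without the 9 spots of high local background on wild type 12 h replicate 1, normexp turned none of the 13 higher. At 12 h 1 of the 24 was then called lower. The 4 at 24 h turned higher with or without those spots. Led by miR-410 (-1.65 ± 0.13 at 12 h, limma adjusted p = 5.08e-05, and -1.91 at 24 h), those called lower included miR-409-5p (-1.37 and -1.71) and miR-134 (-1.30 at 12 h). In knockout cells 4 were called lower at 12 h and 6 at 24 h, against 3.98% and 5.11% of all tested miRNAs. Among the called were miR-411* (-0.72 and -1.26), miR-154* (-1.03 and -0.85) and miR-134 (-0.92 and -0.82). All 4 at 12 h and 5 of the 6 at 24 h turned higher with normexp. The response differed between genotypes for 3 at 12 h and 4 at 24 h, with miR-410 the largest among those called (1.38 and 1.48). All 3 at 12 h turned negative with normexp over all spots, and none did without the spots of high local background. The 3 and 4 called are 12.5% and 16.7% of the 24, against 22.2% and 19.9% of all tested miRNAs. The 12 h number was 1 without replicate 1 of the untreated wild-type, 12 h wild-type replicate 2 or 12 h knockout replicate 1, and at 24 h 1 remained without the first of these arrays or without 24 h wild-type replicate 2. Without replicate 2 of the untreated knockout cells it was 1 higher and 1 lower at each time. Knockout cells held more of 9 of the 24 at 12 h (37.5%) and of 8 at 24 h (33.3%), near the 29.5% and 27.3% of all tested miRNAs. Normexp over all spots turned 8 of those 9 lower. Without the spots of high local background it turned none of those 9 lower. In untreated cells 11.4% of all tested miRNAs were called in either direction, and 0 of the 24 by limma (2 at an unadjusted p under 0.05). Their median genotype difference was 0.25 at 12 h and 0.31 at 24 h, against 1.26 and 1.21 for the Rtl1 antisense region, and that gap was not tested.

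The number of these 24 called lower in knockout cells rested on single arrays. At 12 h it was 0 without knockout untreated replicate 1 by limma (3 at an unadjusted p under 0.05) and 1 without either 12 h knockout array. At 24 h it was 1 without knockout untreated replicate 1, 2 without replicate 2 of knockout at 24 h or 1 of the 12 h knockout arrays, and 3 without either 24 h wild-type array. In wild type the 12 h number was 7 without replicate 1 of the untreated cells or replicate 2 of the 12 h cells, and the 24 h number was as low as 12 without replicate 1 of the untreated cells. Knockout against wild type, leaving out 1 array gave 5 to 9 higher at 12 h, lowest without knockout 12 h replicate 1 or wild type 12 h replicate 2, and 5 to 10 at 24 h, lowest without knockout 24 h replicate 1. With quantile normalization the numbers called lower were 9 and 11 in wild type and 3 and 2 in knockout cells, and the numbers higher in knockout cells under tunicamycin were 2 and 1.

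**Figure D5:**
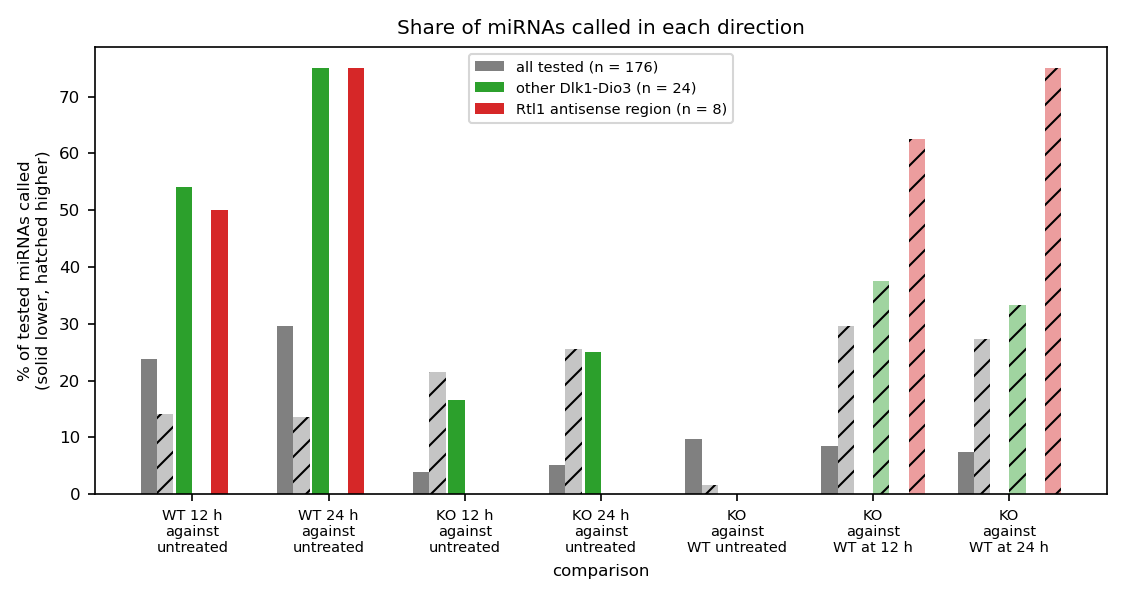
Share of tested miRNAs called lower (solid bars) or higher (hatched bars), as % of those tested (y axis), in 7 comparisons (x axis), for all 176 tested miRNAs (grey), the 24 other Dlk1-Dio3 miRNAs (green) and the 8 of the Rtl1 antisense region (red). In wild type 50% of the 8 were called lower at 12 h and 75% at 24 h, in knockout cells 0, and under tunicamycin 62.5% and 75% were higher in knockout than in wild type, numbers that fell to 0 with arrays scaled over all miRNAs.

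Over the 12 arrays, the 28 pairs of tested members correlated with Pearson's r of 0.43 to 0.98 (median 0.83). The mean log2 level of the 5 members detected on all arrays was most like that of miR-329 (r = 0.992), another Dlk1-Dio3 miRNA, followed by miR-143 (r = 0.985), miR-27b (r = 0.982), miR-199a-3p (r = 0.981) and miR-24 (r = 0.977), which lie outside the domain. These values are descriptions over 12 arrays that share 6 groups, 2 slides and 1 scaling per array. miR-143 and miR-199a-3p are fibroblast markers of the list given above.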

How the data were processed

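Total RNA of 12 cultures was labelled with Cy3 and hybridised to 1-colour Agilent miRNA arrays. The authors deposited scanner tables of spot intensity on a linear scale, made by the software named in the submitters' processing notes (Agilent Feature Extraction, version 10.7.1.1), and a table whose log2 values match the software's total signal of each miRNA (within 1.18e-06, column medians 5.75 to 6.87, not scaled between arrays). The software's flags for outlier spots and detection, per the file headers, were used as given.

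Background-subtracted intensities were averaged over the spots of a probe without outlier spots, and probes were summed per miRNA. Scaling divided the sums by the array's own 75th percentile, taken over 93 miRNAs that every array detected. Values were floored at 0.0191 (log2 -5.71) and set on a log2 scale. limma 3.58.1 in R 4.3.3 fitted 1 mean per group over all arrays (6 residual and 1.65 prior degrees of freedom), for 11 comparisons over 176 mouse miRNAs. The script was tested on simulated data.

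Members, lists and markers were chosen with earlier results of these data known. Every array name with a listed number is named, every tested one is given in each comparison, and up to 4 called miRNAs per comparison of the other Dlk1-Dio3 list could be named. Likeness was the highest Pearson correlation with the mean of the members detected on all arrays.

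Each slide was scanned in 2 sessions, each holding both genotypes of 1 replicate number. Same-numbered deviations from group means correlated at 0.48 between untreated groups and at 0.76 to 0.91 between treated groups, and at -0.38 to -0.05 across slides, so the numbers pair arrays within a slide. Values with the scan session as a block stand beside the genotype comparisons and response differences they change. No session held both treated and untreated arrays, so the block gives no error for treatment comparisons, whose p-values take arrays as independent and can be too small. The alternatives covered quantile normalization, scaling over all miRNAs, normexp, the deposited totals, the floor, the filter, blocks, the groups fitted and leaving out arrays. The number of arrays limits the precision.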

Additional observations from a re-analysis of the deposited data

Results flagged for a closer look

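In 4 cases the response to tunicamycin differed between genotypes by a test of the difference itself (limma, adjusted over 176 miRNAs). At 12 h the response of knockout minus that of wild type was 1.58 for miR-431 and 1.40 for miR-434-3p on the log2 scale. At 24 h it was 1.49 for miR-431 and 1.49 for miR-434-3p. That is 2 of the 8 tested members (25%) at each time, close to the 22.2% at 12 h and 19.9% at 24 h of all 176 miRNAs with a higher response in knockout cells. In each case the values within both replicate numbers were positive, which is no separate support because they average to the called difference. With 2 arrays a group, single arrays could not be tested for lying apart from their group.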

How the results depend on the processing

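Over 27 alternatives, 25 differences between groups or responses were called with the settings given above. In these 675 cases 457 stayed called in the same direction, 201 kept the direction without being called, and 17 reversed. The number of members called changed as follows, for wild type at 12 h and 24 h (4 and 6 of 8), the response difference at 12 h and 24 h (2 and 2), and knockout against wild type at 12 h and 24 h (5 and 6). All 6 numbers were 0 with scaling over all miRNAs, with normexp over all spots and with the unscaled deposited totals. With the scaled deposited totals they were 2, 3, 0, 0, 2 and 1, and with normexp without spots of high local background, added after seeing the data, 1, 1, 0, 0, 1 and 0. Quantile normalization gave 0 and 0 response differences and 2 and 1 genotype differences. Without a detection filter the numbers were 3 for wild type at 24 h, 0 and 0 for the response differences and 3 for the genotypes at 24 h. Fitting only the groups compared gave 1 response difference at 24 h and 0 genotype differences at 24 h, and leaving out the 3 arrays of lowest signal, added after seeing the data, 0 response differences at 24 h. Doubling the floor gave 1 call in knockout cells at 24 h. With the replicate block the numbers were 1 at 12 h and 3 at 24 h in knockout cells, 4 for the response difference at 24 h and 1 in untreated cells between genotypes. With the scan session as a block they were 1, 3, 5 and 1. For treatment comparisons and response differences the scan session block was added after seeing the data. The shares of all tested miRNAs called with either block are not given here. No session holds both treated and untreated arrays, so neither block can supply the error of a treatment comparison, and calls gained there are not support. Leaving out 1 array in turn gave 3 to 5 for wild type at 12 h, 3 to 6 for wild type at 24 h, 0 to 2 for knockout at 24 h, 0 to 3 for each response difference and 3 to 6 for each genotype difference under tunicamycin. Where that left 1 array in a group, it was assumed to vary like the others.

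miR-127 reversed with the deposited totals, to 1.46 scaled and 1.63 unscaled in wild type at 12 h and to 1.011 and 0.80 at 24 h, where the totals exceed the sums of the probe totals. miR-136 between genotypes at 12 h reversed to -0.0071 scaled and -0.75 unscaled. With normexp over all spots, wild type at 12 h reversed to 0.42 for miR-431, 0.86 for miR-433 and 0.27 for miR-434-3p, the response difference at 12 h to -0.14 for miR-431 and -0.10 for miR-434-3p, and the genotype difference at 12 h to -0.15 for miR-136, -0.49 for miR-337-3p, -0.34 for miR-431 and -0.57 for miR-433. On wild type 12 h replicate 1 the fitted background was then -488, against 3.59 to 37.7 on the other arrays, and 3.66 without its 9 spots of local background over 1000. miR-337-3p in wild type at 24 h reversed to 0.086 with and without those spots, and the cause was not tested. Quantile normalization moved the median of all 176 differences from 0.25 to -0.03 in knockout cells at 12 h and from 0.37 to 0.18 for the response difference at 12 h. Signal near background limits miR-433, miR-434-5p and miR-337-3p most.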
